A study of Mus musculus with 2 samples.

Results

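The 7 genes described here are Scn3a, Cacna1c, Cacna1a, Kcnb2, Adcy2, Ptprn2 and Ptprn, which encode ion channels, an adenylyl cyclase and proteins of the secretory granule. They were taken by name, as 7 of the 55401 genes measured, and had been selected on earlier results of the same data that showed them far higher in RNA of enteroendocrine cells, the hormone-secreting cells of the gut lining, than in enterocytes, the absorptive cells. The RNA contrast between enteroendocrine and enterocyte cells therefore chose the genes, and its values are given as a description only. The rule also names Ptprn2 in goblet cells, so that level is a description too. RNA ratios of other classes over enterocytes share the low level that chose the genes, so they are descriptions as well. The contrast did not use chromatin or the variation among enteroendocrine cells.

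A single mouse, 55 weeks old, gave the epithelial cells of its small intestine. It carried a mutation of TrnA, the mitochondrial gene of the alanine tRNA, at a load of 73% per the labels. RNA and open chromatin (ATAC) were read in the same cells, so both libraries share every barcode and both describe 1 animal. Cells were stained for CD45, CD31, TER-119 and CD326 and sorted, but the gates are not stated in the sources used here, and neither is whether the animal had colitis. Every cell came from this mutant animal and no other animal was analysed here, so classes of cells are compared and the effect of the mutation is not.

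Excitable enteroendocrine cells turn nutrients, stretch and chemical signals into a change of membrane voltage. Sodium and calcium channels carry the depolarising currents, calcium entry drives the fusion of hormone granules with the membrane, potassium channels bring the voltage back, and cyclic AMP made by adenylyl cyclases increases release. Enterochromaffin cells, which make serotonin, and peptide cells, which make hormones such as cholecystokinin, are the main branches of the lineage. Goblet cells secrete mucus, Paneth cells secrete antimicrobial peptides, and tuft cells are chemosensory.

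Of 12363 barcodes, 9872 were kept, with a median of 5591 UMIs (tags that count captured RNA molecules), of which 1547 came from nuclear genes, and 6765.5 ATAC fragments in peaks. The enteroendocrine-like class held 192 cells, or 1.94% of kept cells (95% exact binomial interval 1.68 to 2.24%), with 484119 nuclear-encoded UMIs. It was set beside 2939 enterocyte-like, 1436 goblet-like, 293 Paneth-like, 101 tuft-like and 1742 crypt progenitor-like cells, and 3142 kept cells stayed unnamed. Of the unnamed cells, 1765 formed a shallow cluster with a median of 448 nuclear-encoded UMIs. Its best match was the enterocyte list, at a median log2 ratio of 1.37, but a depth rule left it out of the enterocyte-like class. All 22 enteroendocrine markers were seen in the class, summing to 9948 UMIs. Of markers of enteric neurons, which use several of the same channels, Prph, Tubb3, Chrna3 and Hand2 had no UMI in the class, while Ret had 43, Elavl4 6, Uchl1 1 and Snap25, which endocrine cells also use, 269. The enteric neuron list was the next best match of the class, at a median log2 ratio of 1.42 against 5.31 for the enteroendocrine list. All 5 fibroblast markers had none. By clusters made from ATAC alone, 159 of the 192 cells (82.8%) fell in the same class.

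Levels below are summed UMIs per 1000000 nuclear-encoded UMIs of a class, with 95% exact Poisson intervals that cover counting error only. There is 1 animal, so no test between conditions or animals was possible and no p-value is given. A gene or peak is called higher where its level is at least 2-fold higher with at least 20 counts over both classes. Free RNA in droplets was gauged with 6 hormone genes (Gip, Sst, Nts, Cck, Gcg and Ghrl), whose level outside the enteroendocrine-like class ran, as a percentage of the level inside it, from 0.876 to 4.29% in enterocyte-like cells and from 0.393 to 2.16% in goblet-like cells. The range was 0.321 to 1.68% for Paneth-like, 0 to 1.71% for tuft-like and 0.312 to 1.68% for crypt progenitor-like cells. A level inside or under that range was not read as expression, and its source was not tested.

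In RNA, 6 of the 7 genes were called higher in enteroendocrine-like than in enterocyte-like cells, where 24.9% of the 10971 genes over the minimum were called higher. Since this contrast chose them, nothing is read from that count. Ptprn had 19 UMIs in the enteroendocrine-like class and none in enterocyte-like cells, just under the minimum of 20. The levels of all 7 genes in enterocyte-like cells were 0 to 0.958% of their enteroendocrine-like level, inside or under the hormone range. The share of UMIs encoded by mtDNA had a median of 44.3% in enteroendocrine-like and 78.0% in enterocyte-like cells. Per UMI of all kinds, 6878 genes were called higher and 545 lower, in place of 2729 and 1926, and the median log2 ratio of all genes moved by 1.21.

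**Figure D1:**
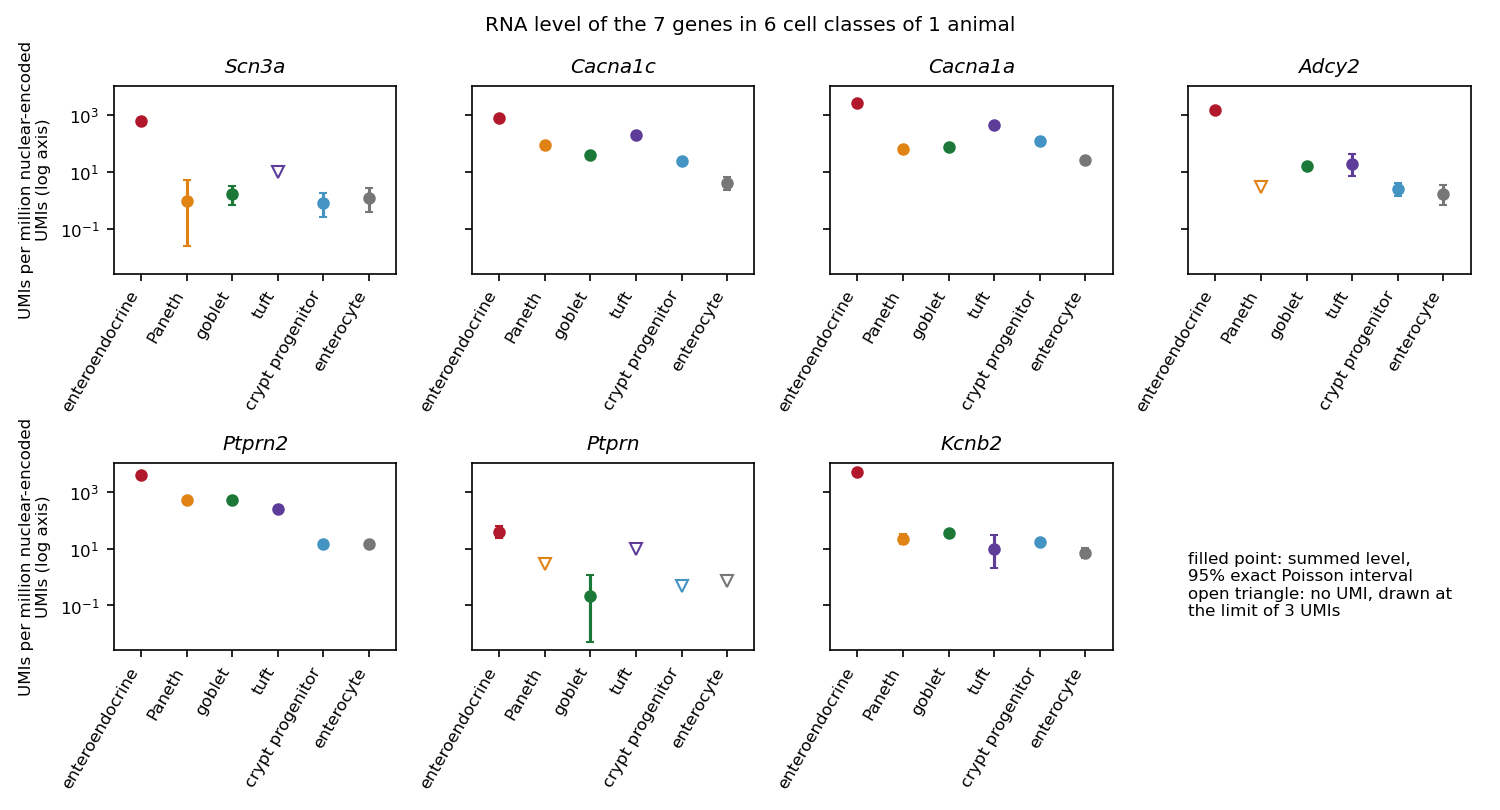
RNA level of each gene (summed UMIs per 1000000 nuclear-encoded UMIs, log axis) in 6 cell classes of 1 animal, with 95% exact Poisson intervals and open triangles at the limit of 3 UMIs where a class had none. Each gene was highest in enteroendocrine-like cells, Ptprn2 was next in Paneth-like and goblet-like cells at 501 and 495, and Cacna1a and Cacna1c were next in tuft-like cells at 452 and 203.

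Scn3a encodes the pore of a voltage-gated sodium channel, which carries the fast upstroke of action potentials. Its span is chr2:65457118-65567591 (mm10). Its level was 653 (583 to 729) in enteroendocrine-like cells, from 316 UMIs in 83 of 192 cells (43.2%). The other classes held between 0 UMIs, in 101 tuft-like cells, and 8 UMIs, in goblet-like cells, with levels of at most 1.66. These intervals overlapped one another, so no order among the other classes can be read. Of all Scn3a UMIs in kept cells, 91.9% lay in the 1.94% of cells that were enteroendocrine-like.

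Within the lineage, Scn3a was concentrated in the enterochromaffin sub-cluster. The 192 cells fell into 7 sub-clusters made without the 7 genes, of which 3 could be named from markers: enterochromaffin (41 cells), peptide (25) and progenitor (39). The other sub-clusters stay unnamed. They are called by leading genes: Itga4 (40 cells, with Gip also among the 10 leading genes), mitotic genes (22), Chrm3 and Cck (14), and Sst and Ghrl (11, after a gene model without a given name). Of the 22 cells led by mitotic genes, 15 had doublet scores in the highest 8% of kept cells. The progenitor cells were shallow, with a median of 969 nuclear-encoded UMIs against 2030 in enterochromaffin cells, a median of 61.5% mtDNA-encoded UMIs, and 8 of 39 scores in that highest range. At resolution 1.5 a group of 21 cells with a median of 695 nuclear-encoded UMIs, led by Spink4, stood apart and 20 progenitor cells were named, so each progenitor value below is of a group that changes with the setting. The part of depth and mixed droplets in it was not tested.

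Scn3a stood at 2155 (1860 to 2483) in enterochromaffin cells, with a UMI in 38 of 41. It stood at 482 (321 to 697) in peptide cells, 345 in progenitor cells, 126 in the Itga4-led, 1373 in the Chrm3/Cck-led, 406 in the Sst/Ghrl-led and 120 in the mitotic sub-cluster. The enterochromaffin level was 4.47-fold the peptide level (2.99 to 6.90), and the Chrm3/Cck-led cells were the other high group. Those Chrm3/Cck-led cells carried markers of both branches, with Cck at 2288, Lmx1a at 784 and Tph1 at 425. Their median log2 ratio was 0.657 for the peptide list and 0.517 for the enterochromaffin list.

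The chromatin of Scn3a gave few fragments. The peak at its start, chr2:65567161-65568060, held 7 fragments in enteroendocrine-like and 5 in enterocyte-like cells, or 4.17 and 0.237 per 1000000 fragments in peaks, under the minimum for a call. The other peak of its span, chr2:65471093-65472002 in the part far from the start, stood at 7.75 per 1000000 in enteroendocrine-like and 0.616 in enterocyte-like cells, 12.6-fold (5.37 to 29.4). Goblet-like cells had 1.5 there, Paneth-like cells 3.12 and crypt progenitor-like cells 1.71. The sparse start peak and the called inner peak both had their highest value in the enteroendocrine-like class.

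Cacna1c and Cacna1a encode the pores of voltage-gated calcium channels, the L-type CaV1.2 and the P/Q-type CaV2.1, through which calcium enters to trigger granule release. Cacna1c (chr6:118587240-119197384) stood at 814 (735 to 898) in enteroendocrine-like cells, with a UMI in 65.1% of them. It was 203 (155 to 260) in tuft-like, 91.3 (73.7 to 112) in Paneth-like, 39.3 (33.9 to 45.3) in goblet-like, 25.2 (21.5 to 29.5) in crypt progenitor-like and 4.06 (2.37 to 6.51) in enterocyte-like cells. No neighbours in this order overlapped. The tuft-like level was 24.9% of the enteroendocrine-like level, the Paneth-like 11.2% and the goblet-like 4.83%, all above the hormone range of those classes.

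Cacna1c and Scn3a lay opposite in the enterochromaffin and Itga4-led cells, but not in every sub-cluster. Enterochromaffin cells had 67.7 (24.8 to 147), with a UMI in 5 of 41 cells (12.2%). Peptide cells had 948, with a UMI in 21 of 25, progenitor cells 1512, Itga4-led cells 1730, with a UMI in 39 of 40, and Chrm3/Cck-led cells 1144. The Sst/Ghrl-led cells had 569 and the mitotic sub-cluster 271. The Chrm3/Cck-led cells were thus high in both genes and the mitotic sub-cluster low in both. The enterochromaffin level was 0.0714-fold the peptide level (0.0251 to 0.166). Cell by cell, 48 enteroendocrine-like cells had a UMI of Scn3a alone of the pair, 90 of Cacna1c alone, 35 of both and 19 of neither.

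Cacna1c has several starts in RefSeq, of which the outer was not called and an internal one was. The peak at the outer start, chr6:119196503-119197432, stood at 3.58 per 1000000 in enteroendocrine-like cells and 1.85 in enterocyte-like cells, 1.93-fold (0.669 to 4.60) and not called, while goblet-like cells had 5.05 and crypt progenitor-like cells 6.11. The peak at an internal start, chr6:119108393-119108994, stood at 11.9 in enteroendocrine-like, 8.14 in tuft-like and 1.52 in enterocyte-like cells. Crypt progenitor-like cells had 4.8 there, goblet-like cells 3.97 and Paneth-like cells 3.82. The enteroendocrine-like value there was 7.86-fold the enterocyte-like value (4.26 to 14.2). At the outer start the enteroendocrine-like value rests on 6 fragments, and its interval (1.31 to 7.78) overlaps those of goblet-like and crypt progenitor-like cells. The intervals of both ratios overlap, so the starts are not shown to differ in ratio.

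The promoters at both starts are shown because their base composition differs; each is 300 bases on the minus strand from RefSeq (GRCm38.p6), from 250 before to 50 after the start, with matches of GGGCGG on either strand in capitals.
Cacna1c outer start, chr6:119196360-119196659: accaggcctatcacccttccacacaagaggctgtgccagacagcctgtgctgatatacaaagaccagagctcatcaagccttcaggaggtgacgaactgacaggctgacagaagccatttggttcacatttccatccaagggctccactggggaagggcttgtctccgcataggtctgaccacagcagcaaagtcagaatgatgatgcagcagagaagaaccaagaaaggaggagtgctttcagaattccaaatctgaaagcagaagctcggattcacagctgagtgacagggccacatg
Cacna1c internal start, chr6:119108446-119108745: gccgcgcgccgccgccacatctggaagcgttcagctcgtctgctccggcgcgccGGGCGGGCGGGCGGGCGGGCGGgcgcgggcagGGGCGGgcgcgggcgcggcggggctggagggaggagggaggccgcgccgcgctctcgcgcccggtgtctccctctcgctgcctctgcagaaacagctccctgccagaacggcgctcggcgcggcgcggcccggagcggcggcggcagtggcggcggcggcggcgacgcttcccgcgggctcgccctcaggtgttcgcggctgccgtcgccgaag
The outer promoter has 51.3% G and C, 3 CpG and no GGGCGG. The internal promoter has 81.3% G and C, 57 CpG and 6 GGGCGG matches, which overlap in a repeated run except for the last, which stands apart. Of 32851 promoters in the table, the median is 52.7% G and C and 7 CpG, 0.152% hold at least 57 CpG, and 35.7% hold GGGCGG on either strand. The searched E-box CAGCTG matches once in the outer promoter and CAGATG, read on either strand, once in the internal one. They occur in 16.3% and 17.2% of all promoters. RefSeq promoter entries were found for 4 of the 7 genes, and those of Scn3a, Cacna1a and Kcnb2 are not shown.

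Other Cacna1c span peaks with the largest ratios, among those with at least 20 fragments over both classes, were chr6:118885628-118886530, at 5.96 in enteroendocrine-like and 0.901 in enterocyte-like cells, and chr6:118593407-118594295, at 10.7 and 2.37. The latter was no higher than the 14.6 of Paneth-like cells. Of 14 span peaks over the minimum, 8 were called higher in enteroendocrine-like cells.

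Cacna1a (chr8:84338631-84640251) stood at 2743 (2598 to 2895) in enteroendocrine-like cells, with a UMI in 185 of 192. Tuft-like cells had 452 (379 to 535), or 16.5% of that level, and crypt progenitor-like cells 129 (121 to 139), or 4.72%. Both lie above the hormone range of their class. Goblet-like cells had 76.0 (68.4 to 84.2) and Paneth-like cells 64.8 (50.1 to 82.4), which overlapped and were above that range too, and enterocyte-like cells 26.3 (21.6 to 31.7). With every cell thinned to 500 nuclear-encoded UMIs, Cacna1a was seen in 72.3% of 184 enteroendocrine-like and 20.6% of 97 tuft-like cells.

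Cacna1a was spread more evenly over enterochromaffin and peptide cells than Scn3a or Cacna1c. It was 5485 in progenitor cells, 4608 in Chrm3/Cck-led, 3377 in peptide, 2877 in Itga4-led, 2403 in enterochromaffin, 2194 in Sst/Ghrl-led and 1308 in mitotic cells. The enterochromaffin level was 0.712-fold the peptide level (0.583 to 0.868), under the 2-fold bound.

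At the Cacna1a start, chr8:84338278-84339157, the value was 7.15 per 1000000 in enteroendocrine-like and 2.04 in enterocyte-like cells, 3.51-fold (1.68 to 6.77), with 6.24 in Paneth-like and 5.04 in crypt progenitor-like cells. The span held peaks with larger ratios. chr8:84485645-84486560 stood at 10.7 and 0.616, 17.4-fold, chr8:84350645-84351542 at 27.4 and 1.90, 14.5-fold, and chr8:84346231-84347140 at 21.5 and 1.71, 12.6-fold. The middle peak of these was shared with other secretory classes, at 26.0 in Paneth-like and 16.9 in goblet-like cells. Of 18 span peaks over the minimum, 12 were called higher.

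Kcnb2 encodes Kv2.2, a delayed-rectifier potassium channel subunit that helps to repolarise the membrane. Kcnb2 (chr1:15286925-15723751) stood at 5162 (4962 to 5368) in enteroendocrine-like cells, with a UMI in 187 of 192 cells (97.4%). Goblet-like cells had 36.0 (30.9 to 41.8), Paneth-like 22.6 (14.3 to 33.9), crypt progenitor-like 17.1 (14.1 to 20.7), tuft-like 9.97 from 3 UMIs and enterocyte-like 7.17 (4.84 to 10.2). Every one of these levels was at most 0.698% of the enteroendocrine-like level, inside or under the hormone range. Of the 174 goblet-like UMIs, 95 lay in 9 cells, 6 of which also had a UMI of 1 of 12 enteroendocrine markers other than hormones, against 8.33% of the 1380 goblet-like cells without Kcnb2. Of the 108 crypt progenitor-like UMIs, 80 lay in 5 cells, and all 5 had such a marker.

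Kcnb2 varied least between the enterochromaffin and peptide cells of the genes over the minimum, at 7468 and 7684, a ratio of 0.972 (0.861 to 1.10). It was 6025 in progenitor, 6013 in Chrm3/Cck-led, 5998 in Itga4-led, 3859 in Sst/Ghrl-led and 1624 in mitotic cells. It was therefore high in every sub-cluster except the mitotic group, which had the lowest value.

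Its start peak was also the most selective of the 6 start peaks over the minimum. chr1:15286247-15287148 stood at 26.2 per 1000000 in enteroendocrine-like and 0.711 in enterocyte-like cells, 36.9-fold (20.1 to 71.4). The other classes stood between 1.02, in tuft-like, and 4.16, in Paneth-like cells. Inside the gene, chr1:15453744-15454655 stood at 16.7 against 0.379, 44.0-fold, and was 17.0-fold over goblet-like cells (9.18 to 32.3). chr1:15582019-15582910 stood at 13.7 against 0.332, 41.3-fold, but reached 12.1 in Paneth-like and 7.89 in goblet-like cells, where Kcnb2 RNA was inside the hormone range. The remaining named peak, chr1:15705736-15706624, stood at 2.38 against 0.853.

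Adcy2 encodes an adenylyl cyclase that makes cyclic AMP and is stimulated by G protein subunits. Adcy2 (chr13:68620043-68999600) stood at 1549 (1440 to 1664) in enteroendocrine-like cells, with a UMI in 140 of 192 (72.9%). Tuft-like cells had 19.9 (7.32 to 43.4), goblet-like 15.9 (12.6 to 19.9), crypt progenitor-like 2.54 and enterocyte-like 1.67, and 293 Paneth-like cells had no UMI. The goblet-like and tuft-like levels were 1.03% and 1.29% of the enteroendocrine-like level, inside the hormone range.

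Adcy2 was high in Sst/Ghrl-led cells, at 4550, and lower in progenitor cells, at 497. Peptide cells had 2136, Itga4-led 2051, enterochromaffin 1906, mitotic 692 and Chrm3/Cck-led 621. The enterochromaffin and peptide levels did not differ beyond counting error (ratio 0.892, 0.704 to 1.13), and the Sst/Ghrl-led level came from 11 cells and 112 UMIs.

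The promoter of Adcy2 overlaps its start peak, and is shown because that peak was the only one of its span over the minimum. It lies on the minus strand, with GGGCGG or its reverse complement in capitals (RefSeq, GRCm38.p6).
Adcy2, chr13:68999492-68999791: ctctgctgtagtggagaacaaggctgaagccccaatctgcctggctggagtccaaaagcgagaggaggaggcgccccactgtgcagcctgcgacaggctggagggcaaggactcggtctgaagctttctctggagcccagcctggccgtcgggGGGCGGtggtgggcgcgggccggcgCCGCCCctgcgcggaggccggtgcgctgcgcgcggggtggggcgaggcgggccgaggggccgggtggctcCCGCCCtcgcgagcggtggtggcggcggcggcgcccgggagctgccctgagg
It has 75% G and C, 32 CpG and 3 matches of GGGCGG on either strand. The peak, chr13:68999007-68999862, stood at 16.7 per 1000000 in enteroendocrine-like and 1.42 in enterocyte-like cells, 11.7-fold (6.76 to 20.3). The other classes lay between 5.09, in tuft-like, and 8.67, in Paneth-like cells, although Paneth-like cells had no Adcy2 UMI.

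Ptprn2 and Ptprn encode phogrin and IA-2, catalytically inactive relatives of receptor tyrosine phosphatases that sit in the membrane of dense core granules. Ptprn2 (chr12:116485695-117278167) stood at 3828 (3655 to 4006) in enteroendocrine-like cells, with a UMI in 179 of 192. It was also found in most goblet-like and Paneth-like cells. Paneth-like cells had 501 (458 to 546) and goblet-like cells 495 (475 to 515), which overlapped, and tuft-like cells 246 (193 to 309). Of the 74 tuft-like UMIs, 40 lay in 7 of the 101 cells. The median doublet score of those 7 was 0.141, against 0.0823 in tuft-like cells without Ptprn2. Crypt progenitor-like and enterocyte-like cells had 15.1 and 14.8, inside or under the hormone range. The enteroendocrine-like level was 7.73-fold the goblet-like level (7.27 to 8.22).

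Ptprn2 in goblet-like and Paneth-like cells lay above the hormone range. The levels were 12.9% and 13.1% of the enteroendocrine-like level, against hormone maxima of 2.16% and 1.68%. A UMI was seen in 59.7% of goblet-like and 61.4% of Paneth-like cells, and in 1.36% of enterocyte-like cells, whose median depth was 966 nuclear-encoded UMIs against 2488 in goblet-like cells. Thinned to 500 nuclear-encoded UMIs, the shares were 21.4% of 1427 goblet-like, 27.1% of 291 Paneth-like and 0.477% of 2724 enterocyte-like cells. Of 149 goblet-like cells with at least 5 Ptprn2 UMIs, 28 (18.8%) had a UMI of the 12 markers. Of 579 goblet-like cells without Ptprn2, 35 (6.04%) had one. These groups were not matched for depth, so the shares are given as a description.

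Goblet markers move with the class names, so their level is given too. The 11 goblet markers summed to 56511 per 1000000 in goblet-like, 11305 in Paneth-like and 4177 in enteroendocrine-like cells. The part of mixed droplets in the Ptprn2 levels was not tested.

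Of the 7 genes, 5 were called higher in goblet-like than in enterocyte-like cells, where 21.9% of 12369 genes over the minimum were called. They were Ptprn2 (33.4-fold, 26.0 to 43.7), Cacna1c (9.68), Adcy2 (9.53), Kcnb2 (5.02) and Cacna1a (2.89). Scn3a and Ptprn were under the minimum. The low enterocyte level that chose the genes is the lower side of this ratio, so nothing is read from the count. For Adcy2 and Kcnb2 the goblet-like level itself is inside the hormone range. Adcy2 was uneven, though, with 50 of the 77 goblet-like UMIs in 41 cells of cluster 6, where its level was 2.45% of the enteroendocrine-like level against a hormone range of 0.744 to 2.85%. Whether these UMIs were free RNA was not tested. With classes taken from ATAC clusters the log2 ratio of Kcnb2 was 0.03, of Adcy2 0.80 and of Ptprn2 3.48, and the count was 3.

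The large goblet-like clusters differed in these genes. Cluster 7 (593 cells) had 705 of Ptprn2 and cluster 6 (610 cells) 431, a ratio of 1.64 (1.48 to 1.81). Cacna1c was 80.2 in cluster 7 and 6.06 in cluster 6, 13.2-fold (6.55 to 31.2), so the goblet-like Cacna1c level came largely from cluster 7. Adcy2 went the other way, at 5.28 in cluster 7 and 37.9 in cluster 6, 0.139-fold (0.0630 to 0.278). Without cluster 7, the log2 ratio of Cacna1c over enterocyte-like cells was 1.67, that of Kcnb2 0.85 in place of 2.33, and 4 genes were called.

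In enteroendocrine sub-clusters, Ptprn2 was 11079 in the 14 Chrm3/Cck-led cells, 6348 in Itga4-led, 4621 in progenitor, 3601 in peptide, 1932 in mitotic, 1666 in Sst/Ghrl-led and 1579 in enterochromaffin cells. The enterochromaffin level was 0.439-fold the peptide level (0.352 to 0.546). In enterochromaffin cells Ptprn2 was thus on the low side with Cacna1c, where Scn3a was high, but the opposition to Scn3a did not hold in every sub-cluster. The Chrm3/Cck-led cells were high in Scn3a too, at 1373, and the mitotic cells were low in it, at 120.

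**Figure D2:**
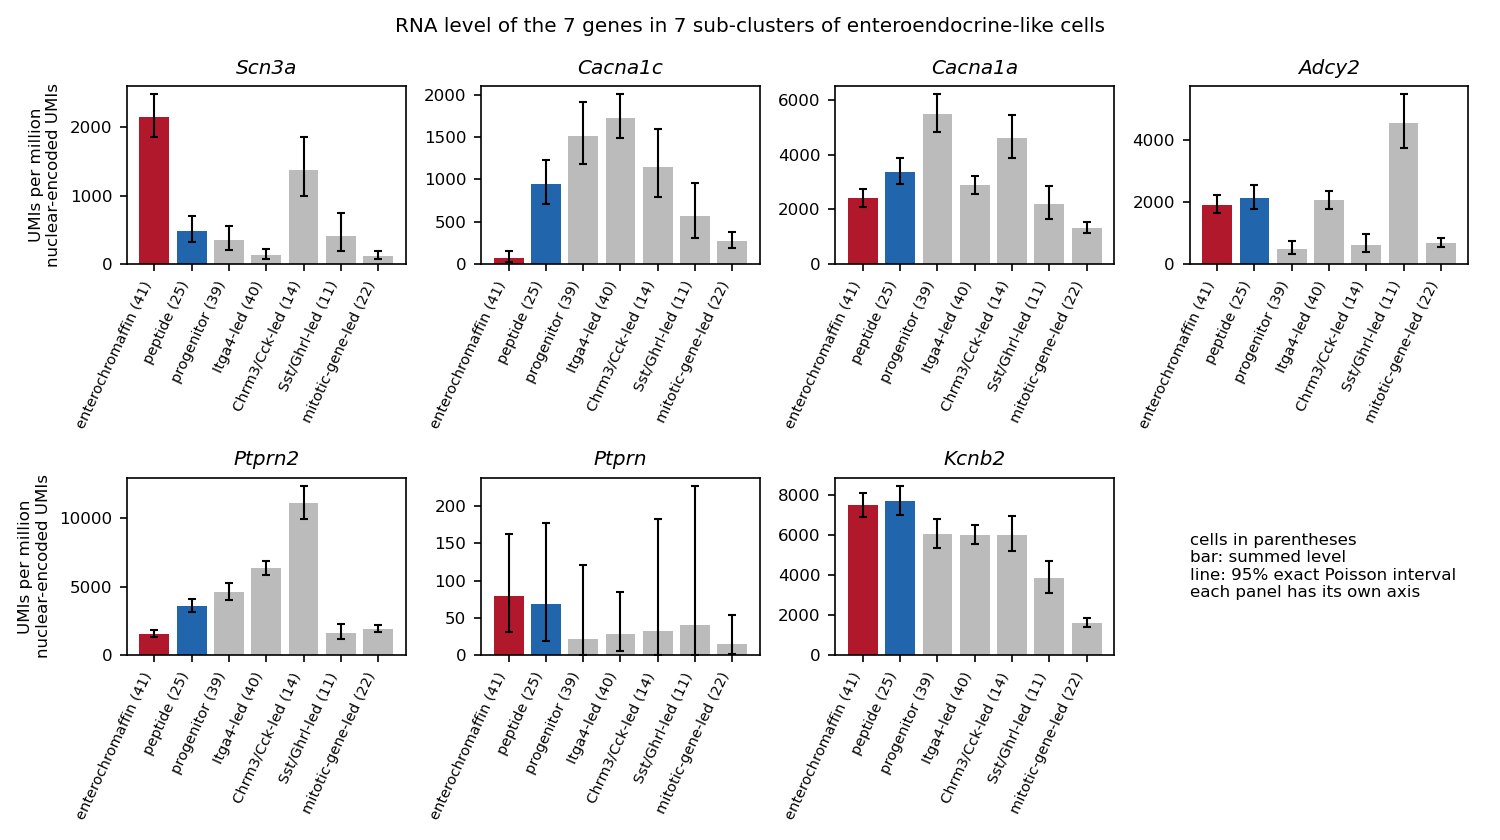
RNA level of each gene (summed UMIs per 1000000 nuclear-encoded UMIs, linear axis of its own in each panel) in 7 sub-clusters of the 192 enteroendocrine-like cells, with 95% exact Poisson intervals and cell numbers in parentheses. Scn3a is highest in enterochromaffin cells at 2155, where Cacna1c is lowest at 67.7, and Ptprn2 is highest in the Chrm3/Cck-led cells at 11079.

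Between enterochromaffin and peptide cells, 3 of the 6 genes over the minimum were at least 2-fold apart (Scn3a, Cacna1c and Ptprn2), against 22.6% of 1830 genes. The sub-clusters rest on 41 and 25 cells of 1 animal, so counting intervals do not show how animals vary. The peptide sub-cluster leaves out the Itga4-led cells, rich in Gip, and the Sst/Ghrl-led cells.

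The promoter of Ptprn2 is shown because the start peak was open in every secretory class; it lies on the plus strand, with GGGCGG in capitals (RefSeq, GRCm38.p6).
Ptprn2, chr12:116485470-116485769: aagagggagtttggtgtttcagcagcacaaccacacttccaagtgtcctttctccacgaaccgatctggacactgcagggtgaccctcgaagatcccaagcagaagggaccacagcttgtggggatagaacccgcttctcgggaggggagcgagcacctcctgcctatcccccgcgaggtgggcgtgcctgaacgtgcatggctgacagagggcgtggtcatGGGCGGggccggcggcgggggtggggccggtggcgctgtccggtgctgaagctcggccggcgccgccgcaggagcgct
It has 66.0% G and C, 24 CpG and 1 GGGCGG. The start peak, chr12:116485344-116486205, stood at 28.0 per 1000000 in enteroendocrine-like cells and at 4.46 in enterocyte-like cells. Paneth-like cells had 23.6, goblet-like cells 20.5, tuft-like cells 18.3 and crypt progenitor-like cells 14.0. Enteroendocrine-like over enterocyte-like was 6.29-fold (4.33 to 9.02), while over goblet-like cells it was 1.37 with an interval that includes equality (0.989 to 1.85).

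Among peaks with at least 20 fragments over both classes, those with the largest ratios over enterocyte-like cells were chr12:116527210-116528096, at 10.7 against 0.284, 37.7-fold, chr12:116581759-116582525, at 8.94 against 0.284, 31.4-fold, and chr12:116490556-116491488, at 25 against 0.853, 29.3-fold. The last of these, 5327 bases from the start, stood at 4.28 in goblet-like cells. It was 5.85-fold higher in enteroendocrine-like than goblet-like cells (3.93 to 8.57), next to a start peak that was not distinguishable between them.

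Summed over the 24 peaks nearest the start, Ptprn2 had 135 fragments per 1000000 in enteroendocrine-like (118 to 153) and 115 in goblet-like cells (110 to 120), a ratio of 1.17 (1.02 to 1.34), and 31.4 in enterocyte-like cells. Over the 9 peaks nearest the far end it had 69.1 (57.1 to 82.9) and 14.9 (13.2 to 16.7), a ratio of 4.64 (3.71 to 5.77), and 6.73 in enterocyte-like cells. The near sum joins peaks that went both ways, such as chr12:116490556-116491488 and chr12:116527210-116528096, at 5.85-fold and 5.07-fold over goblet-like cells, and chr12:116580519-116581403, at 0.148-fold (0.0178 to 0.544). Far peaks also varied, and chr12:117227024-117227929 was at 0.794-fold (0.389 to 1.46). This division of the span was chosen after the values had been seen.

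Single peaks of the far end were also picked after their values were seen. chr12:117140899-117141834 held 22 fragments in enteroendocrine-like and 4 in goblet-like cells, 13.1 and 0.206 per 1000000. chr12:117153542-117154417 stood at 15.5 and 1.34, chr12:117159017-117159850 at 11.3 and 0.619, and chr12:117255159-117255911 at 11.3 and 0.670. An opposite case lay near the start, where chr12:116621096-116622019 stood at 8.94 in enteroendocrine-like and 19.0 in goblet-like cells (ratio 0.471, 0.261 to 0.787).

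**Figure D3:**
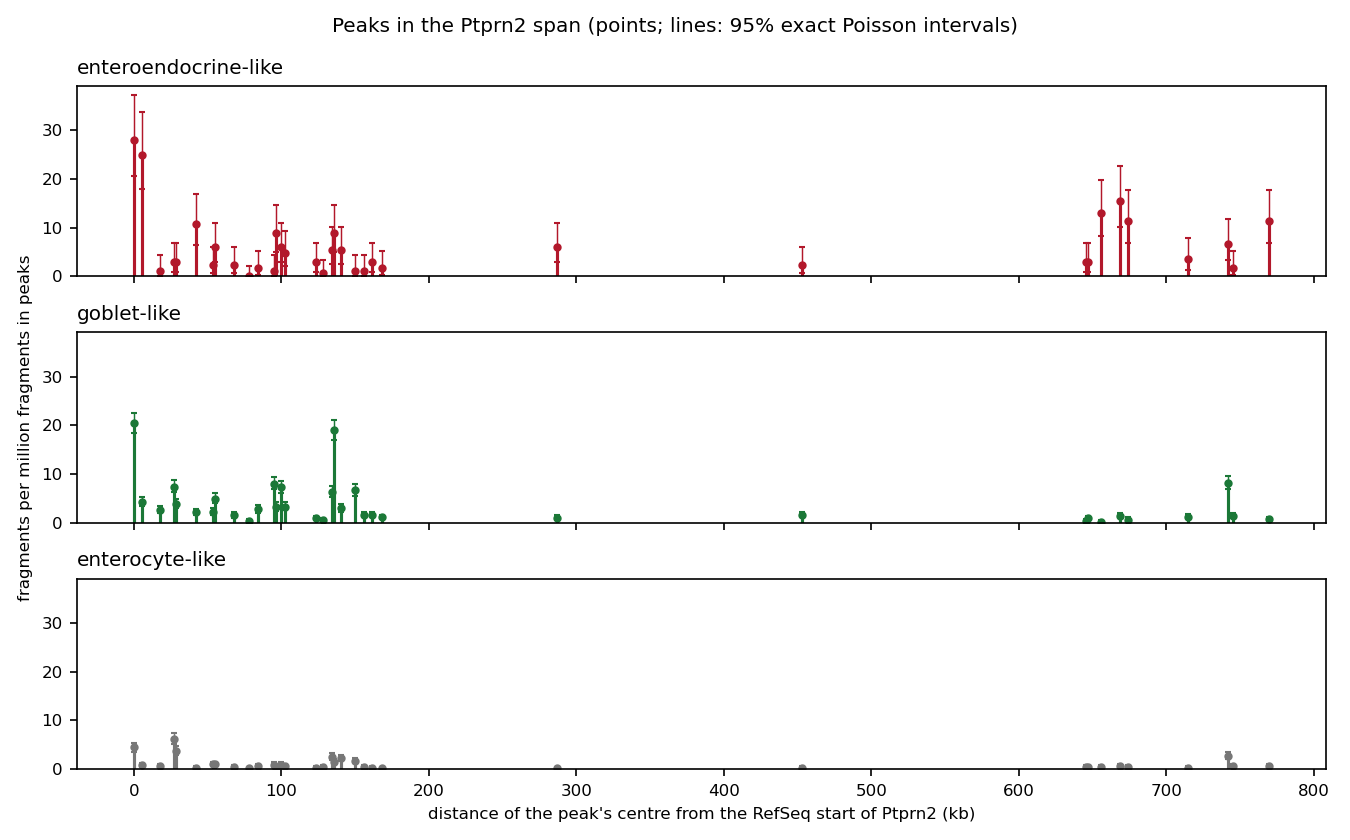
Fragments per 1000000 fragments in peaks, with 95% exact Poisson intervals, at each peak of the Ptprn2 span by the distance of its centre from the RefSeq start (kb), in enteroendocrine-like, goblet-like and enterocyte-like cells. The start peak stands at 28.0, 20.5 and 4.46, and the far peaks sum to 69.1, 14.9 and 6.73.

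The microRNA gene Mir153 lies in the Ptprn2 span, and its nearest peak is the last of the far peaks named above, 4327 bases from the 5p and 4289 bases from the 3p sequence. Its mature sequences (RefSeq, GRCm38.p6, plus strand) have bases 2 to 8, the seed, in capitals.
mmu-miR-153-5p, chr12:117250821-117250843: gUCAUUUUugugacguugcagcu
mmu-miR-153-3p, chr12:117250860-117250881: uUGCAUAGucacaaaagugauc
The seeds differ. Mir153 had 0 UMIs in kept cells, and the assay captures polyadenylated RNA, so nothing is read from that about the mature microRNAs.

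Ptprn (chr1:75247035-75264497) was sparse, with 39.2 (23.6 to 61.3) in enteroendocrine-like cells from 19 UMIs in 17 cells (8.85%). Goblet-like cells had 1 UMI and the other classes none. All 17 cells also had UMIs of Ptprn2 and Kcnb2. By sub-cluster the 19 UMIs were 7 in enterochromaffin, 4 in peptide, 3 in Itga4-led, 2 in mitotic and 1 in each of the others, too few to order.

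The start peak of Ptprn, chr1:75262774-75263663, stood at 5.96 per 1000000 in enteroendocrine-like and 2.75 in enterocyte-like cells. The ratio was 2.17-fold with an interval that includes equality (0.988 to 4.28). This peak lies within 1000 bases of the gene's start but overlaps neither RefSeq promoter of Ptprn. The other peaks were chr1:75247828-75248738, at 6.56 and 2.99, chr1:75251325-75252220, at 45.3 and 26.3, and chr1:75253982-75254892, at 5.96 and 4.55. All 4 peaks of this short gene were open in the other classes too. Among the 7 genes it had the smallest summed ratio over its span, 1.75-fold.

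Across the start sites, 5 of the 7 peaks were called more open in enteroendocrine-like than enterocyte-like cells (Kcnb2, Adcy2, Ptprn2, Cacna1a and Ptprn), where 24.4% of 21862 start-site peaks were called and the median ratio was 1.29-fold. With a 200-base window the count was 4, as the Ptprn peak then fell outside. Over the gene spans, 44 of 62 member peaks over the minimum were called, against 23.3% of 80865 span peaks with a median of 1.07-fold. In all 102 member peaks lie in the spans. A peak sparse in enterocyte-like cells can pass the minimum only through a high enteroendocrine-like count. The counts of called peaks, and the largest ratios named above, are therefore descriptions under this filter. Peaks of 1 gene are not independent, and Ptprn2 holds 16, Cacna1a 12 and Cacna1c 8 of the 44.

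**Figure D4:**
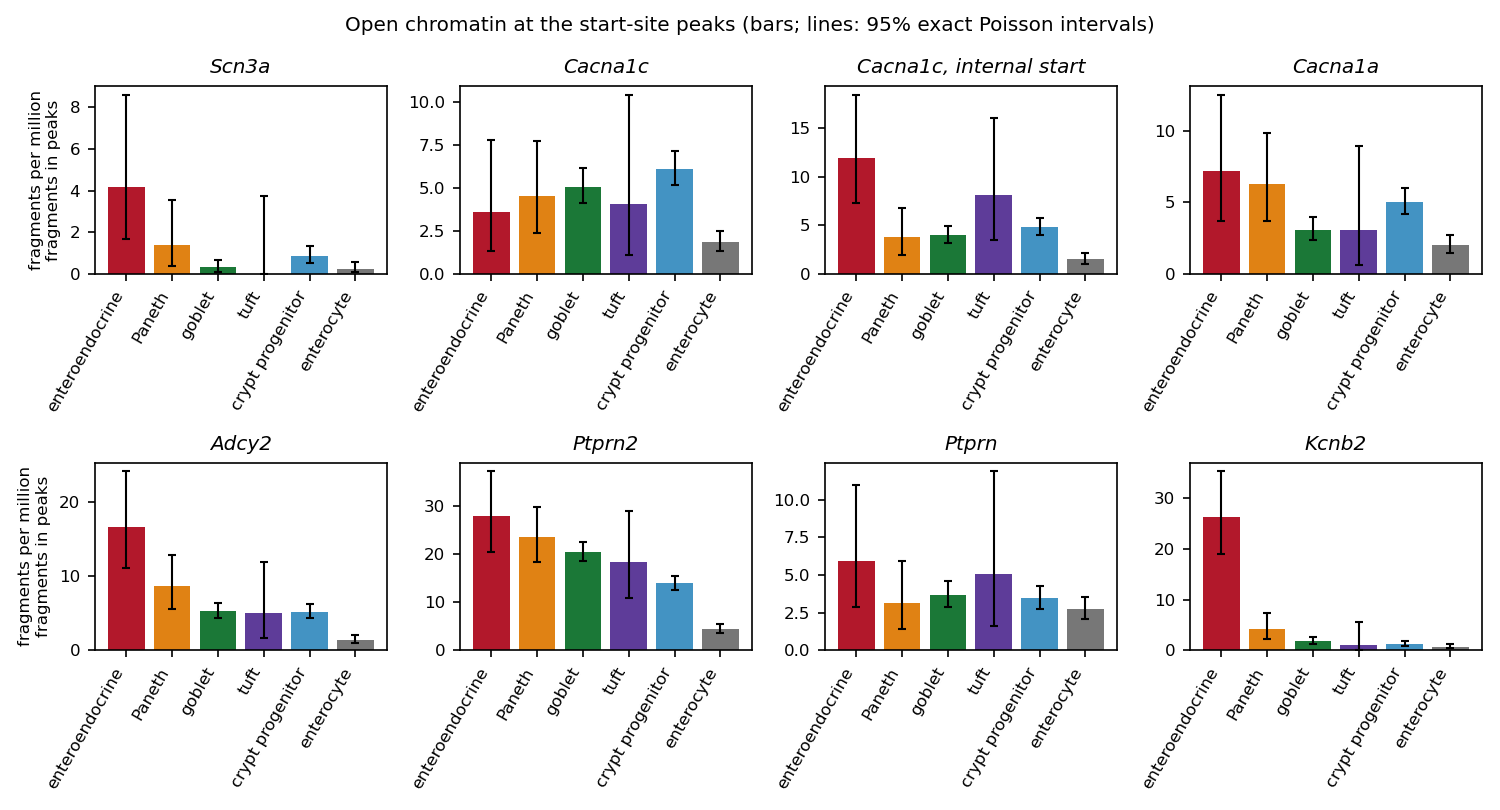
Fragments per 1000000 fragments in peaks, with 95% exact Poisson intervals, at the start-site peak of each gene and at the internal start of Cacna1c, in 6 cell classes. Kcnb2 stands at 26.2 in enteroendocrine-like and at most 4.16 in other classes, while the outer Cacna1c start is at 3.58 in enteroendocrine-like and 6.11 in crypt progenitor-like cells.

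Goblet-like cells were called more open than enterocyte-like cells at 4 start-site peaks (Ptprn2 4.60-fold, Adcy2 3.74, Cacna1c 2.74 and Kcnb2 2.68), against 15.9% of 23778 start-site peaks. Of the Ptprn2 span peaks over the minimum, 26 of 31 were called in goblet-like cells, and of the Kcnb2 span peaks 8 of 9, against 19.5% of all span peaks. The counts were 8 of 21 for Cacna1c, 8 of 26 for Cacna1a, 2 of 2 for Adcy2, 1 of 1 for Scn3a and 1 of 4 for Ptprn. Here too a peak sparse in enterocyte-like cells can pass the minimum only through a high goblet-like count. The goblet-like counts of called peaks are therefore descriptions under this filter, and nothing is read from them.

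How many of the genes had a UMI in a cell follows from their single shares and from depth, which had a median of 2296.5 nuclear-encoded UMIs in enteroendocrine-like and 966 in enterocyte-like cells, and is given as a description. At least 4 of the 7 had a UMI in 177 of 192 enteroendocrine-like cells (92.2%), with a median of 5, and 4 cells had all 7. In enterocyte-like cells 160 of 2939 (5.44%) had at least 1 and 1 cell had at least 4. In goblet-like cells 978 of 1436 (68.1%) had at least 1, but 14 (0.975%) at least 4.

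The genes whose levels over the 17 RNA clusters were most like each member are named by Pearson r on log2 levels over 11281 genes, as a description with no p, since all clusters share 1 library and r is largely set by the enteroendocrine-like cluster being high. Scn3a was most like Pax6 (r = 0.993), a transcription factor of endocrine cells with 130 of its 143 UMIs in that cluster, Nrg1 (0.987; 627 of 645 UMIs) and Asic5 (0.984). Cacna1c was most like Nfatc2 (0.941), Plcb4 (0.931) and Acadsb (0.920), and Cacna1a most like Cep126 (0.924), Sox5 (0.916) and Gm42843 (0.914). Kcnb2 was most like Pcsk1 (0.965), the prohormone convertase, Rimbp2 (0.950) and Isl1 (0.941).

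Adcy2 was most like Plcxd3 (0.952), Snap25 (0.935), a protein of the fusion complex, and Pclo (0.935). Ptprn2 was most like Syt14 (0.923), Krt7 (0.920) and Tbc1d8 (0.916). With 22 UMIs in all kept cells, Ptprn is given no likeness.

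Related genes were read in lists by role, and 84 of 106 genes over the minimum were called higher in enteroendocrine-like than enterocyte-like cells, against the 24.9% over all genes, whose median ratio was 1.13-fold. The lists were chosen with earlier results of these data known. They also share genes with the markers that named the classes, so the direction of those genes was set by the naming. The 12 enteroendocrine markers other than hormones are all listed. Chga, Chgb, Scg2, Scg3 and Pcsk1 are in the granule list. Neurog3, Neurod1, Pax6, Isl1, Insm1, Rfx6 and Fev are among the transcription factors. Slc5a1, in the list of inputs, is an enterocyte marker. Of the 106, 52 had fewer than 20 enterocyte-like UMIs and so passed the minimum mainly through the enteroendocrine-like count, and all 52 were called, as the filter makes likely. Of the 54 with at least 20 enterocyte-like UMIs, 32 were called. The counts and medians of the lists below are descriptions under this filter and the overlap with the naming markers.

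Of 13 other voltage-gated sodium channel genes, 1 was over the minimum, Scn8a, with 26 UMIs against 3, and 9 had no UMI in enteroendocrine-like cells. Of 16 other calcium channel genes, 6 were over the minimum and all 6 were called higher, with a median of 102-fold, but 5 of the 6 had fewer than 20 enterocyte-like UMIs. They included Cacna2d1 (585-fold) and Cacnb2 (318-fold), auxiliary subunits, and the pores Cacna1d (150-fold) and Cacna1h (24 UMIs against 0, at least 69.1-fold with enterocyte-like cells set to 3 UMIs). The lowest were Cacna1b (43.2-fold) and Cacnb3 (6.48-fold).

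Of 51 other potassium channel genes, 15 were over the minimum, 12 were called higher and 1 lower, with a median of 49.0-fold. Kcnj3, a G protein-gated channel, was 1625-fold higher with 3 enterocyte-like UMIs (553 to 7903). Kcnmb2 was at 709-fold (124 to 28332) and Kcnh6 at 467-fold (80.3 to 18773), each with 1 enterocyte-like UMI, and Abcc8, the sulphonylurea receptor, at 346-fold with 2 (92.6 to 2904). The gene called lower was Kcnk5, at 16.5 in enteroendocrine-like and 167 in enterocyte-like cells, and Kcnk1 was at 1.74-fold.

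Of 24 genes of adenylyl cyclases and cyclic AMP signalling, 16 were over the minimum and 9 were called higher, with the lowest list median, 2.63-fold. Pde1c, a phosphodiesterase, was 216-fold higher, Rapgef4, a cyclic AMP sensor, 72.9-fold, Pde10a 34.6-fold (11.2 to 142), and Adcy1 had 31 UMIs against 0, at least 89.3-fold. Pde3a (0.829-fold) and Gnal (0 UMIs against 34) were not called.

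Of 53 granule and exocytosis genes, 35 were over the minimum and 31 were called higher, with a median of 37.0-fold. Snap25 was 2325-fold higher with 1 enterocyte-like UMI (414 to 92174), Stxbp5l 1070-fold, Cadps, a priming factor of granules, 646-fold and Scgn 272-fold with 2 (72.3 to 2297). Vamp3 was at 0.736-fold (0.371 to 1.33) and Syt5 at 0.728-fold (0.305 to 1.49), intervals that include equality.

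Of 46 genes for nutrient, mechanical and receptor inputs, 17 were over the minimum, 11 were called higher and 3 lower, with a median of 7.21-fold. Trpm2 was 735-fold higher (128 to 29356), Trpc4 346-fold (58.6 to 13993) and Glp1r, the receptor of GLP-1, 182-fold (29.2 to 7507), each against 1 enterocyte-like UMI. Trpc5 had 41 UMIs against 0, at least 118-fold. Slc5a1, the sodium-glucose transporter of absorptive cells, was lower at 0.164-fold, as was Trpm4 at 0.197-fold.

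The last list holds transcription factors of the lineage and members of the REST complex, which represses neuronal genes in other cells. It also holds RNA-binding and splicing proteins, such as Celf3, Rbfox2 and Rbfox3. Of its 29 genes, 16 were over the minimum, 14 were called higher and 1 lower, with a median of 142-fold. Celf3, Rbfox2 and Rbfox3 are among those called higher, so the counts and median are not of transcription factors alone. Rfx6 was 713-fold higher (386 to 1493). Lmx1a was at 912-fold (249 to 7579), Myt1 at 674-fold (184 to 5616) and Pax6 at 562-fold (152 to 4688), each against 2 enterocyte-like UMIs. Rest was the gene called lower, with 3 UMIs in enteroendocrine-like and 123 in enterocyte-like cells, 0.211-fold, and its partner Rcor1 was at 1.27-fold.

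**Figure D5:**
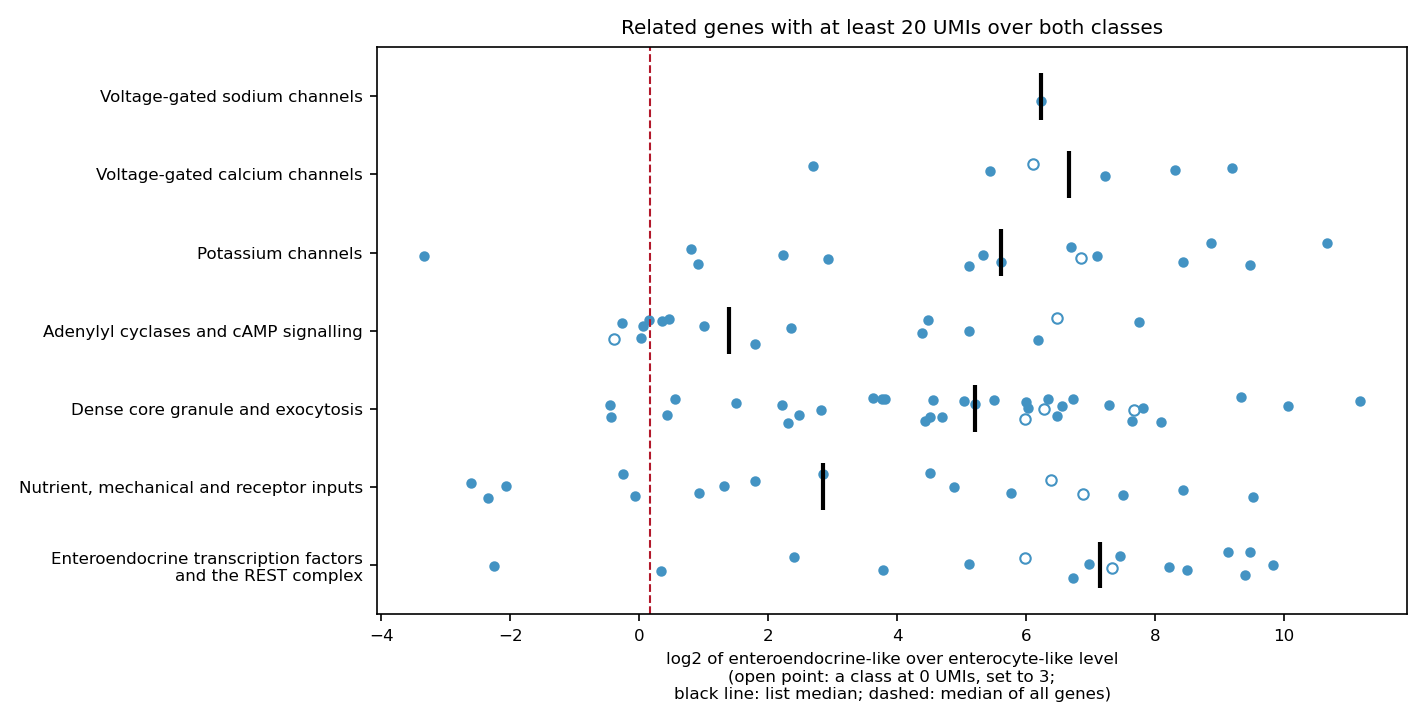
Log2 ratio of enteroendocrine-like over enterocyte-like levels for the listed genes with at least 20 UMIs over both classes, 1 row per list, with list medians (black lines) and the median of all genes (dashed, 0.17). Calcium channels have a median of 102-fold and cyclic AMP genes 2.63-fold. The list of transcription factors and the REST complex, which also holds RNA-binding proteins, has 142-fold.

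Some counts could hold reads of overlapping genes, since the strand setting of the counting is not given in the sources used here. Dcp1b, which codes for a protein, overlaps the Cacna1c span, and Gm51415 the Kcnb2 span, while no gene overlaps Ptprn.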

How the data were processed

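RNA and ATAC were measured in the same cells of 1 mouse, with 100% of barcodes shared. The deposited matrix holds raw counts, UMIs per gene and cut sites per peak, made with Cell Ranger ARC 2.0.2 on mm10, per the submitters' processing notes. Of the peak values, 87.4% were even, so each was divided by 2, rounded up and read as fragments. The matrix held 71697164 UMIs and 197564789 peak counts over 146191 peaks.

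Barcodes needed 500 UMIs, 300 genes and 1000 peak counts: 12163, 10073 and 12072 passed each filter and 9872 all of them. Scrublet marked 0 cells and so did not work, and doublets remain. An alternative removed 885 cells scoring at least 0.1556. Cells were clustered on 27576 seeded random genes without the 7 genes, the related lists and mtDNA genes (1500 variable genes, 30 components, 15 neighbours, Leiden resolution 1, 17 clusters; sub-clusters with 10 components, 10 neighbours and 1000 variable genes). Classes were named from marker lists with at least 3 detected markers, a median log2 ratio of 0.4 and a margin of 0.4 over the next list. No other list could hold more of a cluster's 10 leading genes. Stem and cycling lists did not compete. A cluster stayed unnamed if its median depth was under that of all kept cells divided by 3 and no own marker was among those 10. ATAC clusters, also 17, were made separately.

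Counts were summed per class and divided by nuclear-encoded UMIs or fragments. Intervals are 95% exact Poisson or conditional binomial, and a class at 0 was set to 3 counts. Start-site peaks lie within 1000 bases of a gene's start. The text names the 7 genes, the 4 list genes with the highest ratios and up to 2 with the lowest, the 3 most alike genes (not for Ptprn, for too few UMIs) and the 3 other span peaks with the largest ratios. Likeness used genes with at least 100 UMIs, on log2 levels with 5 UMIs per 1000000 added, over clusters of at least 20 cells. The genes and lists were chosen with earlier results of these data known. Gene spans, promoters and microRNAs came from RefSeq tables (GRCm38.p6), which share the build of mm10.

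On simulated counts for the enteroendocrine-like over enterocyte-like comparison (10971 genes, 200 changed), 98.0% of 4-fold changes were called. Python 3.11.15, scanpy 1.11.5, scipy 1.17.1, leidenalg 0.10.2 and pandas 2.3.3 were used.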

Additional observations from a re-analysis of the deposited data

How the results depend on the processing

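Of the summary counts, 59 alternative values stayed within 1.5 times the main count, 3 were higher and 2 lower beyond that bound. These include the number of the 7 genes called higher in enteroendocrine-like than enterocyte-like cells. They also include the number of the 7 that were highest in the enteroendocrine-like class. Both were largely set by how the genes were chosen, so the tally does not measure stability. The 84 related genes called higher became 42 when cells were thinned to 500 nuclear-encoded UMIs and 175 with no minimum. The 5 of 7 genes called higher in goblet-like cells became 3 with classes from ATAC clusters. The 44 span peaks became 67 with deposited counts in place of fragments and 79 with no minimum, as the peaks over the minimum went from 62 to 91 and 102. Of the single-gene ratios, 29 alternative values moved beyond the counting interval and 201 did not. Scn3a in enterochromaffin over peptide cells had a log2 ratio of 2.16 and ran from 1.35, with sub-clusters at resolution 0.5, to 2.97, thinned. Alternatives with other sub-cluster resolutions, and without cluster 7, the goblet-like cluster of high doublet score or the mitotic sub-cluster, were chosen after seeing the data. No paired analysis was possible because both libraries come from 1 animal, and no replicate could be left out. The class of 192 cells and shallow start peaks limit the precision.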
